A study of Homo sapiens with 6 samples.

Results

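The 9 genes described here encode transcription factors and 1 coactivator of the B lineage, PAX5, EBF1, IKZF1, IKZF3, LEF1, BACH2, POU2AF1, SPIB and BCL6. They were chosen by name and each was found once among the 35410 genes of the deposited count table. All 9 were among the 15465 genes with enough counts to be tested. RNA was measured by MACE-Seq, which sequences the 3′ ends of polyadenylated transcripts, in libraries labelled as SEM cells, an established line grown from a human proB leukemia that carries the KMT2A::AFF1 fusion gene. The control line SEM::mock carried the empty vector and the line SEM::EGR3 a vector for EGR3, an immediate early zinc finger transcription factor. Both lines had received doxycycline at 1 µg/mL for 48 h, so the inducer was shared and only the insert differed by label. There were 3 biological replicates of each line, and the sources used here do not say whether each line is 1 clone.

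B cell identity is set up in steps by a small network of transcription factors. E2A and IKAROS open the way in the common lymphoid progenitor, EBF1 then switches on early B-lineage genes, and PAX5 fixes the commitment by activating B cell genes and silencing genes of other lineages. LEF1 acts at the end of Wnt signaling and is expressed in proB cells, while AIOLOS, encoded by IKZF3, joins at the preB stage. BACH2, SPI-B, the octamer coactivator OBF-1 (POU2AF1) and BCL6 are best known from preB selection, the mature B cell and the germinal center.

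In SEM::EGR3, 6 of the 9 factors were higher than in SEM::mock, 2 were lower and 1 did not pass the test. The largest differences were those of PAX5, EBF1 and POU2AF1, which lay at or below the detection limit in the control line and were among the well-detected transcripts of the EGR3 line. SPIB, LEF1 and BCL6 rose from a level that was already measurable. IKZF3 and BACH2 fell by less than 1 on the log2 scale, and IKZF1 had overlapping values in the lines. These calls stand against a background in which 68.5% of all tested genes passed an adjusted p of 0.05 (quasi-likelihood test of edgeR, adjusted after Benjamini and Hochberg), 36.5% as higher and 32% as lower in SEM::EGR3.

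The listed genes held between 5286115 and 6181388 counts in a SEM::mock library and between 7293092 and 15106018 in a SEM::EGR3 library. A single count was thus worth more in the control line, between 0.167 and 0.196 CPM, against 0.0645 to 0.135 CPM in SEM::EGR3 (CPM, counts per 1000000 after TMM normalization). The detection limit of a line was set at 3 counts in each of its libraries, which covers counting error only. The overexpressed gene EGR3 was counted 8, 10 and 6 times in the control libraries and 9768, 4952 and 5557 times in those of the EGR3 line. It went from 1.42 ± 0.249 to 637 ± 27.1 CPM (SD, n = 3 per line), a log2 fold change of 8.78 (SE 0.11, adjusted p = 1.27e-26).

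The labelled cell type was checked against marker genes. Of 13 B-lineage markers, 9 were at the detection limit in the libraries labelled SEM::mock, and 3 were so in SEM::EGR3. This limit is set in counts, and the SEM::EGR3 libraries held more counts. In SEM::EGR3, MS4A1, VPREB1 and CD38 had means of 0.550, 0.626 and 0.233 CPM. In SEM::mock, 3 counts were worth 0.502 to 0.588 CPM. CD79A, the signaling chain of the B cell receptor, had 1, 3 and 3 counts in SEM::mock, and IGLL1, a surrogate light chain of the preB receptor, had 0, 0 and 1. The lymphoid genes DNTT, RAG2 and BLNK were at the detection limit in both lines. The summed level of the list ranged from 134 to 158 CPM in SEM::mock and from 196 to 210 CPM in SEM::EGR3, and in SEM::mock most of it was CD24 (144 ± 11.2 CPM, SD, n = 3). Of 14 targets of KMT2A fusion proteins, 6 were at the detection limit in SEM::mock, HOXA7 with 0 counts in each library and HOXA9 with 1, 2 and 3. Other targets were well counted there, with CDK6 at 141 ± 9.59 CPM in SEM::mock and 320 ± 24.6 CPM in SEM::EGR3 (SD, n = 3). LMO2 was the 1 target that was lower in SEM::EGR3, at 110 ± 9.91 CPM in SEM::mock against 32.0 ± 3.31 CPM. That list summed to 277 to 304 CPM in SEM::mock and 1340 to 1440 CPM in SEM::EGR3. CD79A, CD22, IGLL1 and the 6 fusion targets at the detection limit go against the label in the libraries labelled SEM::mock. Other genes of both lists were counted there. The other B-lineage markers at the limit in SEM::mock were at or near this level in SEM::EGR3 too. SEM::mock and SEM::EGR3 stand below for the libraries so labelled.

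Markers of other cell types were counted in both lines, beside a background of 36.5% of all tested genes higher and 32% lower in SEM::EGR3. Of 19 erythroid and megakaryocyte markers in the table, 5 were higher and 11 lower in SEM::EGR3 among 16 tested, and their summed level was 5220 to 5510 CPM in SEM::mock and 6350 to 6590 CPM in SEM::EGR3. GATA1, the master regulator of the erythroid lineage, had 336 ± 9.68 CPM in SEM::mock and 286 ± 8.71 CPM in SEM::EGR3 (SD, n = 3). HBZ, an embryonic globin, had 864 ± 63.5 CPM in SEM::mock and 2117 ± 93.3 CPM in SEM::EGR3 (SD, n = 3). Erythroid transcripts at these levels go against a proB label in the libraries of both lines. The myeloid list summed to 390 to 401 CPM in SEM::mock and 245 to 248 CPM in SEM::EGR3, with 3 genes higher and 4 lower of 8 tested. For the T cell list the sums were 87.1 to 99.2 CPM and 88.8 to 93.9 CPM, with 3 genes higher and 3 lower of 6 tested. The epithelial and fibroblast list summed to 883 to 921 CPM in SEM::mock and 496 to 529 CPM in SEM::EGR3, with 2 genes higher and 4 lower of 6 tested. Plasma cell markers summed to 68.2 to 74.7 CPM and 138 to 147 CPM, with 4 genes higher of 4 tested. The 3 higher T cell genes (CD2, CD4 and TRAC) passed the filter on low counts through the SEM::EGR3 libraries alone. Their direction was thus built into their being tested, as it was for PRTN3 (myeloid), MZB1 (plasma cell) and SLC4A1 (erythroid). The part of these marker differences in the results below was not tested, and in bulk libraries fewer cells with a transcript and less of it per cell cannot be told apart.

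The promoters of PAX5, EBF1, LEF1 and SPIB, 4 of the 6 factors that were higher, are shown beside the first promoter of IKZF1, the factor that did not pass the test. RefSeq's table for GRCh38.p14 held 10 promoters of 7 of the 9 factors, each with 250 bases before and 50 bases after the annotated start. The windows shown for EBF1, LEF1 and IKZF1 lie inside the gene spans given below, so these starts are not the outermost annotated ones. Sequences run 5′ to 3′ on the gene's own strand, and capitals mark matches to any of the motifs searched.
PAX5 (chr9:37034219-37034518, minus strand): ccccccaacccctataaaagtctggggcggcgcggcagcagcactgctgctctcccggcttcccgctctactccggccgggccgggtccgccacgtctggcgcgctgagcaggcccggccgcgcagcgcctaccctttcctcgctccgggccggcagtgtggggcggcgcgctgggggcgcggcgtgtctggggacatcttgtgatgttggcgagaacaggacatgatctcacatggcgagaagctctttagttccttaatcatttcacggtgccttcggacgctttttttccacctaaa
EBF1 (chr5:159097907-159098206, minus strand): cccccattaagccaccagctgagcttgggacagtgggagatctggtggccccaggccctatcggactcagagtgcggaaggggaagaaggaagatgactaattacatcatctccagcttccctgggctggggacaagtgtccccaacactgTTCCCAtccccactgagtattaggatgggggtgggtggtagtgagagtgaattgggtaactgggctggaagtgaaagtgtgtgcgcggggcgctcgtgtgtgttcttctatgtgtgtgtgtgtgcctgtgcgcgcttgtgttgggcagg
LEF1 (chr4:108166252-108166551, minus strand): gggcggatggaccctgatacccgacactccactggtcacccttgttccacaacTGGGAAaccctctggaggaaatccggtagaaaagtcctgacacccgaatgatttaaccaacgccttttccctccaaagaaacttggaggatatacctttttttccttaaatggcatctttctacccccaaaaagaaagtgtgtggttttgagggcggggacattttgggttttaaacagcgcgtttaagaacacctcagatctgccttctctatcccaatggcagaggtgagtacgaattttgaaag
SPIB (chr19:50418688-50418987, plus strand): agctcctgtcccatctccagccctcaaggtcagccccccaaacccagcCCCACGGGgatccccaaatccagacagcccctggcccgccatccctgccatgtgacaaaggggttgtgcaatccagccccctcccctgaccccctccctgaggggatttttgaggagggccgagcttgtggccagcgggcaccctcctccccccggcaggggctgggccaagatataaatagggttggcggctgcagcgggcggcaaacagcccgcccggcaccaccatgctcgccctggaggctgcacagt
IKZF1 (chr7:50304466-50304765, plus strand): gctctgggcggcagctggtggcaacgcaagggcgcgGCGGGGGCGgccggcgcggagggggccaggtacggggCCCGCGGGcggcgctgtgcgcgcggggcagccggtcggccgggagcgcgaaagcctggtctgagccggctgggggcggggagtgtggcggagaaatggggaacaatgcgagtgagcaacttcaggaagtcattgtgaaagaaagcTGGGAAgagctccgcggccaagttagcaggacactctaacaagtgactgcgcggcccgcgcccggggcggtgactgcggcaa

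The motifs were searched on both strands, and no match in these promoters overlapped another. The EGR family motif GCGNGGGCG was in 9.43% of the 35116 promoters of this length in the table and in 1 of the 10 of these factors, the first of IKZF1, where it began 214 bases before the start. The palindromic EBF1 core CCCNNGGG was in 19.1% of all promoters and in 2 of the 10, IKZF1 (177 bases before the start) and SPIB (202 bases before). TGGGAA, the Ikaros family core, was in 24.0% of all promoters and in 3 of the 10, those of EBF1, IKZF1 and LEF1. TGAGTCA, which AP-1 and BACH proteins share, was in 4.95% of all promoters and in 1 of the 2 BCL6 promoters. The octamer ATGCAAAT and the LEF1 and TCF motif CTTTGAT, in 1.77% and 2.62% of all promoters, were in none of the 10. A match describes letters only, and the windows without a match say nothing of binding elsewhere. The GC content was 65.0% for PAX5, 57.0% for EBF1, 47.0% for LEF1, 67.0% for SPIB and 71.0% for the first IKZF1 promoter, with a median of 58.7% over all promoters.

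PAX5 (ENSG00000196092, chromosome 9, 36833275 to 37034185, minus strand, GRCh38) encodes the paired domain factor of B cell commitment. Replicates 1 to 3 of SEM::mock held 1, 1 and 2 counts of it and those of SEM::EGR3 held 3410, 1443 and 1760, which is 0.246 ± 0.127 CPM and 203 ± 14.7 CPM (SD, n = 3). The libraries of the lines lay far apart, with each SEM::mock library at or below the detection limit. Between the lines, the level was at least 376-fold higher with EGR3 (adjusted p = 7.87e-24, edgeR, with adjustment over all tested genes). In SEM::EGR3, 95.0% of the tested genes had a lower mean level than PAX5, and in SEM::mock 4.17% did.

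EBF1 (ENSG00000164330, chromosome 5, 158695916 to 159099761, minus strand) encodes early B cell factor, which acts before and together with PAX5. No count was seen in any SEM::mock library, while SEM::EGR3 replicates 1 to 3 had 2058, 925 and 1145 counts. The SEM::EGR3 libraries lay close together, with 133, 125 and 127 CPM and a mean of 128 ± 4.25 CPM (SD, n = 3). That level was at least 237-fold higher than the detection limit of SEM::mock (adjusted p = 7.56e-22, edgeR). By its fitted log2 fold change, which for a gene without counts in one line depends on the prior count, EBF1 was at rank 3 of the 15465 tested genes.

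POU2AF1 (ENSG00000110777, chromosome 11, 111352252 to 111455630, minus strand) encodes the coactivator that octamer factors recruit at immunoglobulin promoters. The control libraries held 0, 1 and 1 counts and the SEM::EGR3 libraries 514, 205 and 296. The EGR3 line held 33.2, 27.6 and 32.7 CPM (mean 31.2 ± 3.08, SD, n = 3), and the control line was at the detection limit throughout. The difference was at least 57.7-fold (adjusted p = 2.33e-17, edgeR). Among tested genes of SEM::EGR3, 61.1% had a lower mean level than POU2AF1, so its level was a middle one, below those of PAX5 and EBF1.

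SPIB (ENSG00000269404, chromosome 19, 50418938 to 50431313, plus strand) encodes an ETS factor related to PU.1. Its counts were 11, 8 and 10 in SEM::mock and 617, 253 and 323 in SEM::EGR3, or 1.94, 1.34 and 1.96 CPM against 39.8, 34.1 and 35.7 CPM. The lowest SEM::EGR3 library was 17.4 times the highest SEM::mock library. The log2 fold change was 4.40 (SE 0.17, 95% interval 4.05 to 4.75, adjusted p = 3.08e-17, edgeR), a 20.9-fold difference between the mean levels.

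LEF1 (ENSG00000138795, chromosome 4, 108047545 to 108168956, minus strand), a nuclear effector of Wnt signaling, was the factor with the highest level in both lines. Counts were 264, 312 and 269 in SEM::mock and 4311, 1831 and 2534 in SEM::EGR3, and levels 46.7, 52.3 and 52.8 CPM against 278, 247 and 280 CPM. Each SEM::EGR3 library was above each SEM::mock library by at least 4.68 times. LEF1 rose by 2.41 on the log2 scale (SE 0.07, 95% interval 2.27 to 2.55, adjusted p = 9.37e-20, edgeR), with mean levels 5.31-fold apart. The antisense gene LEF1-AS1 overlaps it on the other strand and was counted 6, 8 and 11 times in the control line and 130, 70 and 85 times in the EGR3 line. Their shared stretch, 108167525 to 108168956, lies at the annotated 5′ end of both genes, away from the annotated 3′ ends that MACE-Seq reads. Whether counting used the strand is not given in the sources used here, so any reads of LEF1 and LEF1-AS1 within that stretch cannot be told apart.

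BCL6 (ENSG00000113916, chromosome 3, 187721377 to 187745727, minus strand), the zinc finger repressor of the germinal center, was the lowest of the 9 in SEM::EGR3. The control libraries held 8, 10 and 6 counts, the same as for EGR3 itself, and the SEM::EGR3 libraries 96, 51 and 44. In CPM these were 1.41, 1.68 and 1.18 against 6.19, 6.87 and 4.86, and the lines did not overlap. The difference was 2.05 on the log2 scale (SE 0.27, 95% interval 1.49 to 2.60, adjusted p = 3.21e-07, edgeR). This interval was the widest among the 6 factors that were above the detection limit in both lines, at counts under 100 in each library.

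IKZF3 and BACH2 were both lower in SEM::EGR3, each by a small margin. The median absolute log2 fold change over all tested genes was 0.465, which is about the size of both differences. IKZF3 (ENSG00000161405, chromosome 17, 39757715 to 39864188, minus strand), which encodes AIOLOS, had 20.9, 27.6 and 23.3 CPM in SEM::mock and 15.9, 16.4 and 18.2 CPM in SEM::EGR3, from 118, 165 and 119 against 247, 122 and 165 counts. The highest SEM::EGR3 library lay below the lowest SEM::mock library. IKZF3 fell by 0.52 on the log2 scale (SE 0.11, 95% interval -0.75 to -0.28, adjusted p = 0.00028, edgeR), so SEM::mock had 1.42 times the level of SEM::EGR3. BACH2 (ENSG00000112182, chromosome 6, 89926529 to 90296908, minus strand), a repressor that holds back plasma cell differentiation, had 21.4, 20.4 and 22.8 CPM in SEM::mock and 15.4, 14.6 and 17.1 CPM in SEM::EGR3. Here too the lines did not overlap. BACH2 fell by 0.45 on the log2 scale (SE 0.11, 95% interval -0.68 to -0.23, adjusted p = 0.000749, edgeR).

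IKZF1 (ENSG00000185811, chromosome 7, 50304068 to 50405101, plus strand), which encodes IKAROS, was counted 164, 226 and 211 times in the control line and 609, 275 and 363 times in the EGR3 line. Its levels were 28.98, 37.9 and 41.4 CPM in SEM::mock and 39.3, 37.0 and 40.1 CPM in SEM::EGR3. The 3 SEM::EGR3 libraries lay inside the range of the SEM::mock libraries, of which replicate 1 was the lowest. The log2 difference was 0.11 (SE 0.10, 95% interval -0.09 to 0.31, adjusted p = 0.302, edgeR), and without SEM::mock replicate 1 it was -0.040. Counting at 3′ ends does not separate the splice isoforms of IKZF1, which differ in their DNA-binding zinc fingers.

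**Figure D1:**
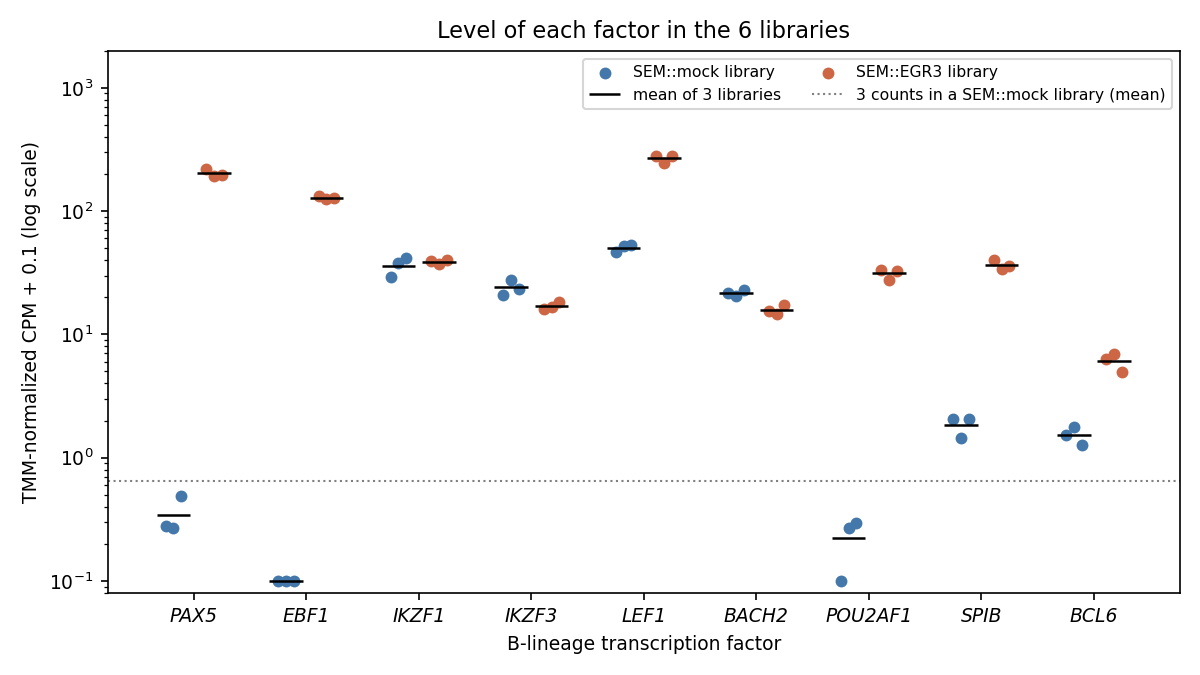
The plot gives the TMM-normalized CPM of each factor plus 0.1, on a log axis, with 1 point per library, black lines at the means of 3 libraries and a dotted line at 3 counts in a SEM::mock library. PAX5, EBF1 and POU2AF1 lie below the dotted line in SEM::mock, and the IKZF1 points of the lines overlap.

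**Figure D2:**
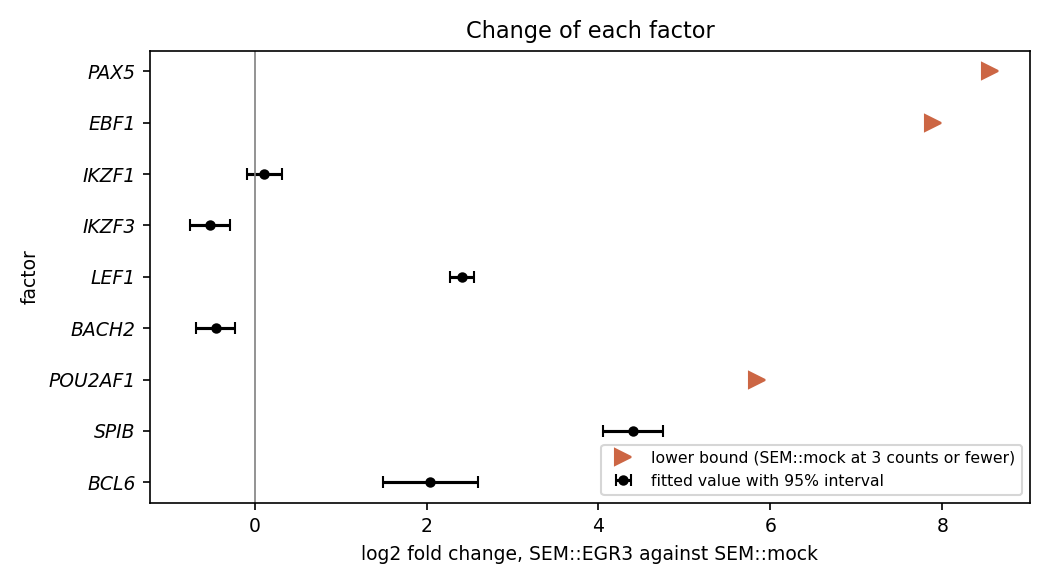
Log2 fold changes of SEM::EGR3 against SEM::mock are drawn for the 9 factors, as fitted values with 95% intervals or, for PAX5, EBF1 and POU2AF1, as lower bounds (triangles). The interval of IKZF1, -0.09 to 0.31, includes 0, and those of IKZF3 and BACH2 lie below 0.

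Counted together, 8 of the 9 factors had libraries that did not overlap between the lines, against 70.1% of all tested genes, and 6 did so with SEM::EGR3 higher, against 37.5%. With a log2 fold change of at least 1 as a further condition, 6 of 9 were higher, against 16.7% of all tested genes. The median log2 fold change was 2.41 over the 9 factors and 0.03 over the 15465 tested genes, and it is the same with PAX5, EBF1 and POU2AF1 at their lower bounds. Of the 6 higher factors, 5 (PAX5, EBF1, POU2AF1, SPIB and BCL6) passed the filter on low counts through the SEM::EGR3 libraries alone, so a higher level there was built into their being tested and the counts above support nothing about the 9. LEF1 was the higher factor that the SEM::mock libraries would also have let through, and with at least 10 counts required in every library 4 factors were tested, of which 1 was higher and 2 were lower.

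The order of the levels differed between the lines. MACE-Seq counts the ends of transcripts, so gene length has little part in these CPM values. In SEM::mock the order was LEF1, IKZF1, IKZF3, BACH2, SPIB, BCL6, PAX5, POU2AF1 and EBF1. The neighbors with overlapping libraries were IKZF3 and BACH2, SPIB and BCL6, PAX5 and POU2AF1, and POU2AF1 and EBF1. In SEM::EGR3 the order was LEF1, PAX5, EBF1, IKZF1, SPIB, POU2AF1, IKZF3, BACH2 and BCL6. Only the neighbors IKZF1 and SPIB, and IKZF3 and BACH2, overlapped in that line. The places of PAX5, POU2AF1 and EBF1 in SEM::mock rest on 0 to 2 counts per library and are not resolved, while in SEM::EGR3 PAX5 and EBF1 followed LEF1 with libraries that did not overlap.

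The summed level of the 9 factors was 121, 142 and 144 CPM in the SEM::mock libraries and 780, 702 and 750 CPM in the SEM::EGR3 libraries. IKZF1, IKZF3 and BACH2 together gave 81.5 ± 8.97 CPM in SEM::mock and 71.4 ± 3.79 CPM in SEM::EGR3 (SD, n = 3), with overlapping libraries. The other 6 gave 54.1 ± 3.41 CPM and 673 ± 37.9 CPM (SD, n = 3). These 6 are the factors called higher, so the contrast of the 2 sums was built into the grouping. LEF1 held a like share of the counts of the 9 factors in both lines, 37.3% ± 0.958 in SEM::mock and 36.0% ± 1.17 in SEM::EGR3 (SD, n = 3). PAX5 went from 0.179% ± 0.0823 to 27.3% ± 1.18 of these counts, and EBF1 from 0% to 17.2% ± 0.468. The share of IKZF1 was 26.4% ± 2.45 in SEM::mock and 5.22% ± 0.166 in SEM::EGR3, although its own level overlapped between the lines. IKZF3 went from 17.6% ± 1.71 to 2.27% ± 0.204 of the counts, and BACH2 from 15.9% ± 1.59 to 2.11% ± 0.162.

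**Figure D3:**
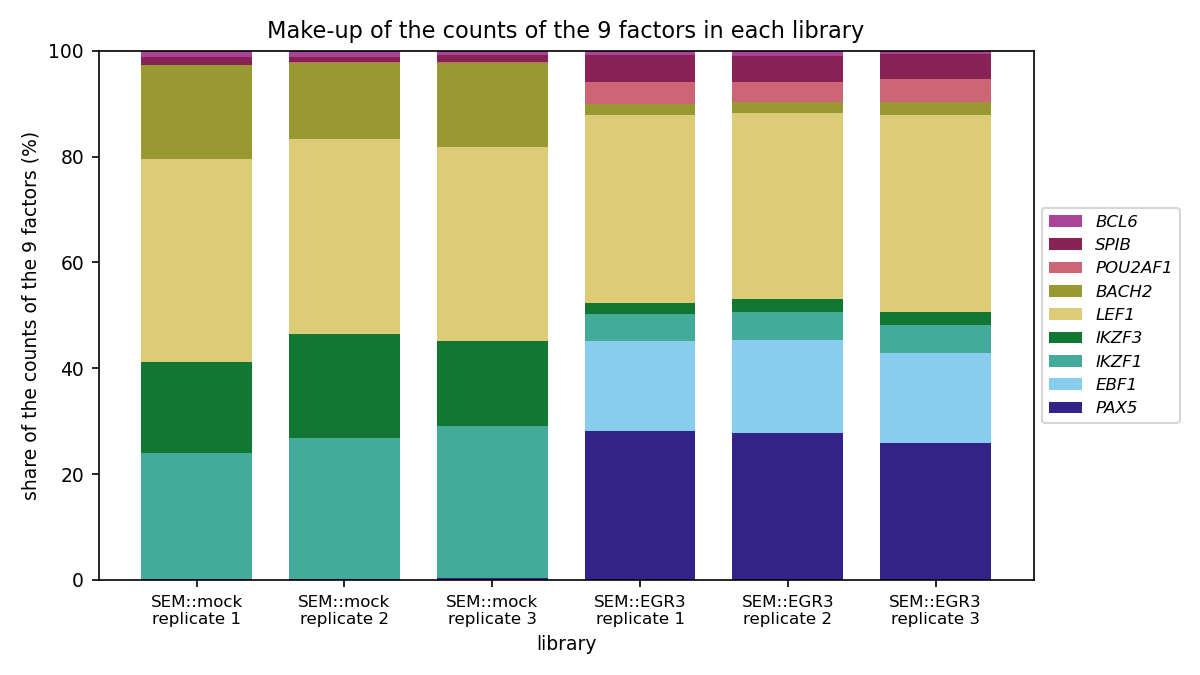
Stacked bars give each factor's share of the counts of the 9 factors, in percent, for each of the 6 libraries. PAX5 fills 25.9% to 28.2% of each SEM::EGR3 bar and EBF1 16.9% to 17.7%, and both are barely visible in SEM::mock, while the LEF1 band stays between 35.1% and 38.4% in the 6 libraries.

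A pair of ratios within the libraries was computed, which do not depend on the scaling between libraries. There were 0.720, 0.730 and 0.564 IKZF3 counts per IKZF1 count in SEM::mock and 0.406, 0.444 and 0.455 in SEM::EGR3. The SEM::EGR3 libraries were the lower ones without overlap, by 0.62 on the log2 scale (p = 0.1 by a two-sided exact permutation test, which cannot go lower with 3 against 3 libraries). For LEF1 and TCF7, the close relatives that answer Wnt signaling, the ratio was 2.20, 3.09 and 2.47 in SEM::mock and 6.53, 5.53 and 6.40 in SEM::EGR3. It was higher in each SEM::EGR3 library, by 1.26 on the log2 scale (exact permutation test, two-sided, p = 0.1). Adjusted over these 2 ratios by the method of Benjamini and Hochberg, p stayed at 0.1 for both.

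Of 28 relatives and binding partners of the factors, 26 were in the table and 21 were tested. The EGR3 line had 11 of them higher and 8 lower, and 2 did not pass, with a median log2 fold change of 0.21 against 0.03 over all tested genes. Beside this, 36.5% of all tested genes were higher and 32% lower. Levels in the lists are means ± SD of 3 libraries per line. The Groucho corepressors TLE4 and TLE1, which PAX5 and LEF1 can recruit, had no count in SEM::mock. With 262, 136 and 156 counts in the EGR3 line, TLE4 was at least 32.4-fold higher, and TLE1, with 221, 85 and 115, at least 23.7-fold. Both passed the filter on low counts through SEM::EGR3 alone, so their direction was built into their being tested. TLE3, the third Groucho gene of the list and the most abundant of them, was lower, at 65.8 ± 1.96 against 52.1 ± 0.646 CPM (log2 fold change -0.34, SE 0.07). BCL6B, the nearest relative of BCL6, fell from 8.62 ± 0.183 to 1.43 ± 0.160 CPM (log2 fold change -2.60, SE 0.22), the opposite direction to BCL6. HELIOS (IKZF2) rose from 11.1 ± 1.45 to 41.2 ± 3.33 CPM (log2 fold change 1.90, SE 0.11), so among the Ikaros family IKZF2 was higher, IKZF3 and IKZF4 (log2 fold change -0.65) were lower, and IKZF1 and IKZF5 did not pass the test. TCF7 rose by 1.14 on the log2 scale, while TCF7L2 did not pass (0.03). β-catenin (CTNNB1), the coactivator of LEF1 and the most abundant of this list, was at 167 ± 11.1 CPM in SEM::mock and 194 ± 10.5 CPM in SEM::EGR3 (log2 fold change 0.21, SE 0.06).

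PU.1 (SPI1), the relative of SPI-B, moved the other way from SPIB, from 68.8 ± 5.32 to 23.8 ± 1.43 CPM (log2 fold change -1.52, SE 0.08). The octamer factors that bind the POU2AF1 product were both higher, POU2F1 by 0.61 and POU2F2 by 1.01 on the log2 scale. Small MAF proteins, the partners of BACH2 at its sites, were lower in the 3 cases tested, with log2 fold changes of -0.42 for MAFG, -0.40 for MAFK and -1.02 for MAFF, while BACH1 was higher (0.39). The BCL6 corepressor genes BCOR and NCOR1 were higher, by 0.91 and 0.52 on the log2 scale.

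Among 24 other regulators of early B cell development, all tested, 20 were higher, 3 were lower and 1 did not pass, with a median log2 fold change of 1.81. Beside this, 36.5% of all tested genes were higher and 32% lower. IRF4, an interferon regulatory factor of preB and plasma cells, was absent from the counts of SEM::mock and had 245, 125 and 141 in the EGR3 line, a difference of at least 29.8-fold. The ETS factor ERG (0 counts against 174, 85 and 112) was at least 21.6-fold higher and IRF8 (0 against 165, 82 and 116) at least 21.3-fold higher. IRF4, ERG and IRF8 passed the filter on low counts through SEM::EGR3 alone, so their direction was built into their being tested. CBFB, the partner of RUNX proteins and the most abundant of the list, went from 138 ± 7.47 to 246 ± 9.39 CPM (log2 fold change 0.83, SE 0.06). TCF3, which encodes E2A, rose by 0.42 on the log2 scale and its relative TCF12 by 0.58, while the third E protein gene TCF4 fell by 1.30. MYB and ARID5B were also lower (log2 fold changes -1.05 and -1.22), and FOXO1 did not pass the test (0.12). The higher genes include ID2 and ID3, which encode inhibitors of E proteins (log2 fold changes 2.33 and 1.94). They also include PRDM1 and XBP1 of the plasma cell list (0.66 and 0.29).

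Genes that PAX5 or EBF1 are known to activate were counted as a separate list. Of its 16 genes, 11 were tested, 10 of them higher and 1 lower, beside 36.5% higher and 32% lower of all tested genes. The median log2 fold change of the list was 5.11, or 4.95 with genes at the detection limit set to their bounds. CD79A (1, 3 and 3 counts against 764, 412 and 468) was at least 96.6-fold higher and IGLL1 (0, 0 and 1 against 757, 405 and 433) at least 93.3-fold higher. CD22, an inhibitory receptor of B cells, was at least 43.8-fold higher and BLK, a kinase of B cell receptor signaling, at least 37.0-fold higher. CD24 was the 1 that fell, from 144 ± 11.2 to 23.5 ± 0.530 CPM (log2 fold change -2.61, SE 0.07). BLNK and RAG2 were not tested, with 1 count each over the 3 SEM::EGR3 libraries and 0 in SEM::mock, and VPREB1, CR2 and FCRLA were also below the filter. A gene that passed the filter through SEM::EGR3 alone had to differ, and this held for 7 of the 10 tested genes of the list whose single values could be given, and for 6 of 23 such genes among the other regulators.

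Of 9 genes known to be repressed by PAX5, 5 were tested, 4 were higher, 0 lower and 1 did not pass, with a median log2 fold change of 1.36. Beside this, 36.5% of all tested genes were higher and 32% lower. FLT3, a receptor tyrosine kinase that is also a target of KMT2A fusion proteins, went from 1, 0 and 4 counts to 4998, 2285 and 2961. EMB (0 against 411, 191 and 241 counts) was at least 48.7-fold higher. NOTCH1, the receptor that drives T cell fate, rose from 22.5 ± 1.67 to 57.6 ± 2.86 CPM (log2 fold change 1.36, SE 0.09). PRDM1, which encodes the plasma cell factor BLIMP-1 and is a target of repression by BCL6, went from 11.7 ± 1.45 to 18.6 ± 1.65 CPM (log2 fold change 0.66, SE 0.13). GRAP2 had a log2 fold change of 0.20 that did not pass, and CSF1R, CD28, CCL3 and FCER1G were not tested. Of the 5 tested genes, 2 (FLT3 and EMB) passed the filter through SEM::EGR3 alone.

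**Figure D4:**
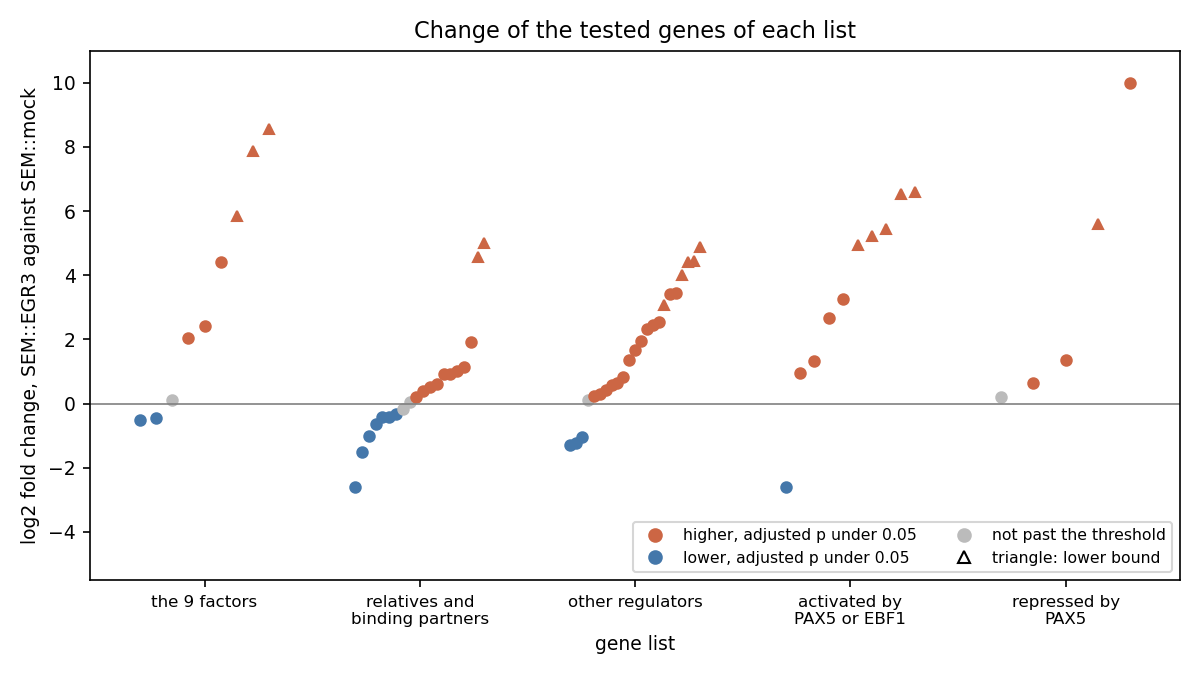
Each point is the log2 fold change of 1 tested gene, SEM::EGR3 against SEM::mock, for the 9 factors and 4 lists around them, in ascending order within a list, without 3 genes whose values are not given here. Triangles are lower bounds, and the points of the relatives and binding partners spread to both sides of 0 while those of the other regulators lie mostly above it.

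The genes next to the factors on their chromosomes did not form 1 pattern. Beside PAX5, MELK (156 kb away) and EBLN3P (45.7 kb) were higher by 0.27 and 0.73 on the log2 scale. Beside EBF1, AC134043.2 (6.62 kb) had no count in SEM::mock and 86, 41 and 56 in SEM::EGR3, and the pseudogene AC008677.2 (764 kb) did not pass (-0.06). POLD1, 0.922 kb from SPIB, did not pass (log2 fold change 0.02, 106 and 109 CPM). MYBPC2, 1.59 kb from SPIB on its other side and known as a muscle gene, went from 0 counts to 1053, 559 and 731, a difference of at least 138-fold. Whether reads of SPIB and MYBPC2 were kept apart in counting was not tested. Near POU2AF1, FDX1 (887 kb) was lower (log2 fold change -0.40) and SIK2 (147 kb) higher (0.59). On the sides of BCL6, RTP4 (349 kb) had no count in SEM::mock and 47, 16 and 29 in SEM::EGR3, and LPP (408 kb) was higher by 5.71 on the log2 scale, from 1, 4 and 2 counts to 369, 168 and 193.

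Around LEF1, HADH (12.4 kb) was higher (log2 fold change 0.44) and RPL34 (452 kb) lower (-0.23). For the factors that fell, the neighbors of BACH2, CASP8AP2 (52.1 kb, log2 fold change -0.03) and MAP3K7 (217 kb, 0.05), did not pass, while those of IKZF3, MIEN1 (26.9 kb, 0.41) and GSDMB (40.4 kb, 1.09), were higher. Next to IKZF1, FIGNL1 (39.0 kb) was lower (log2 fold change -0.62), and UPP1 (2200 kb), at low counts, did not pass (-0.61).

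**Figure D5:**
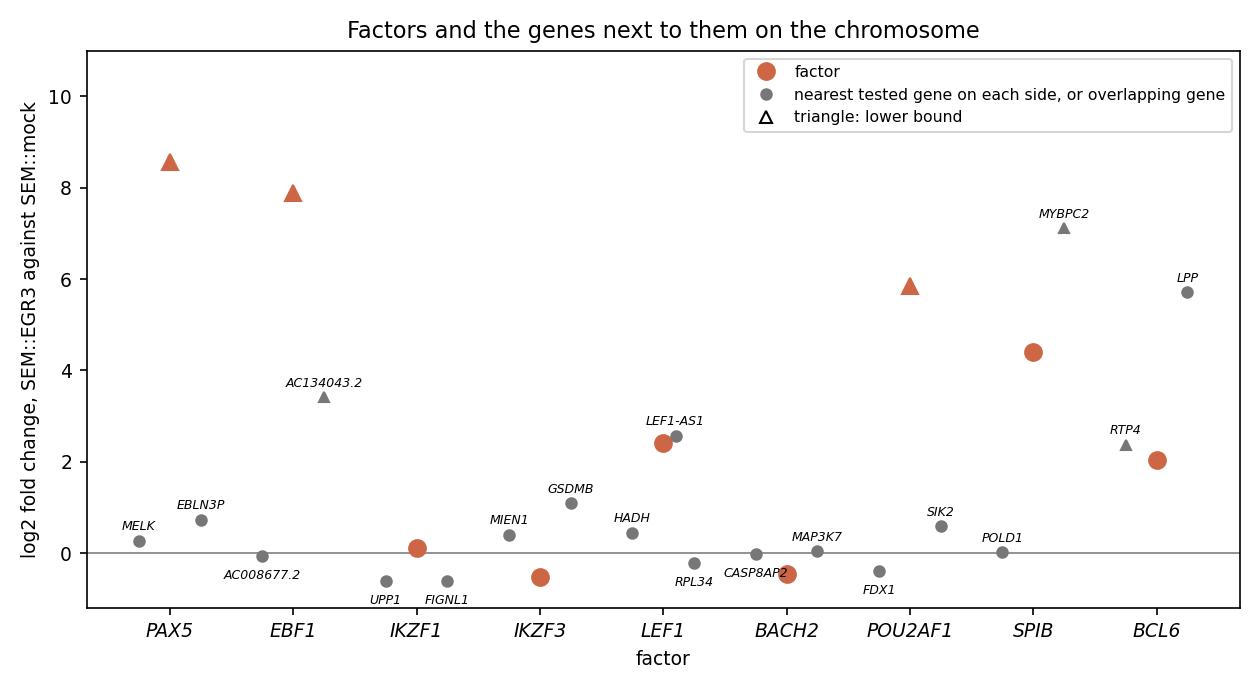
Log2 fold changes of SEM::EGR3 against SEM::mock are shown for the 9 factors (large points), and for the nearest tested gene on each side and any overlapping tested gene (small points with names). Triangles are lower bounds, MYBPC2 lies above SPIB, and POLD1 on the other side of SPIB lies at 0.02.

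For each factor the tested gene with the most similar profile over the 6 libraries was found by the Euclidean distance between log2(CPM + 0.5) profiles, each centered on its mean. PAX5 was closest to PROM1 (distance 0.155), which encodes a stem cell antigen and went from 0, 0 and 1 counts to 2586, 1209 and 1418. EBF1 was closest to CDKN2A (0.302), POU2AF1 to NXPH4 (0.309), SPIB to HTR1F (0.184), LEF1 to ETHE1 (0.115) and BCL6 to RABGAP1L-DT (0.128). CDKN2A, the cell cycle inhibitor gene, had no count in SEM::mock and 2356, 1127 and 1357 in SEM::EGR3. BACH2 lay closest to the mismatch repair gene PMS2 (0.0603) and IKZF1 to COIL (0.0939), a gene that overlapped between the lines as IKZF1 did. The nearest profile to IKZF3 was that of MTND4P12 (0.116), a nuclear copy of a mitochondrial gene whose counts are uncertain because near-identical copies share reads. The distances describe 6 libraries of 2 lines and are dominated by the difference between the lines.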

How the data were processed

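RNA of SEM::mock and SEM::EGR3, 3 biological replicates each, taken after 48 h of doxycycline at 1 µg/mL, was analysed by MACE-Seq. Raw counts of reads per gene, as deposited, were used for each test. The deposited CPM values, named TPM in the table, are counts per 1000000 of a library total, and served only to recover these totals, of which the listed genes make up 73.6% to 75.8%. Size-factor normalized values and the results of the authors' own DESeq2 comparison (fold changes and p-values, also adjusted) were not used. The submitters' processing notes name bcl2fastq, Bowtie2, HTSeq and GRCh38, while annotation and strand setting are not given in the sources used here. The insert is spelled ERG3 in the column headings, which were taken to mean EGR3 because no sample title names another insert. The number of columns of per-sample values left unmatched was 0.

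The comparison was made with edgeR 4.0.16 under R 4.3.3 (filterByExpr, TMM, glmQLFit and glmQLFTest over all 6 libraries with no further term), and Benjamini-Hochberg adjustment was applied over the 15465 tested genes with a threshold of 0.05. The procedure was tested on simulated data, in which far fewer genes changed than passed the threshold here. Levels are TMM-normalized CPM. Ratios were computed as log2 with 0.5 counts added and compared by an exact permutation test (Python 3.11.15, scipy 1.17.1). Lower bounds were set at 3 counts per library and cover counting error only, since the use of molecular identifiers in counting is not stated and reads may be copies of 1 molecule. Replicates of a line differed by more than counting noise. Positions are from GENCODE 29, which held 97.0% of the gene identifiers.

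The factors and the gene lists were chosen with earlier results of these data known. Named are each factor, EGR3, and the 4 genes with the largest change past the threshold and the most abundant gene of each list. The nearest tested gene on each side of a factor, any tested gene overlapping it and the gene with the closest profile are named too. Of the most abundant markers, only some are named. Other list genes and other markers were named after their values were seen. Single values of a few genes that the rule would name are not reported here. Alternatives were DESeq2 1.42.0, other normalization factors or library totals, other filters, the replicate number as a block, leaving out each library, a minimum absolute log2 fold change of 1 and 1 count added in the ratios.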

Additional observations from a re-analysis of the deposited data

How the results depend on the processing

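The calls of the 9 factors kept their number, 6 higher and 2 lower, with DESeq2, with RLE, upper-quartile or no normalization factors, with the library totals behind the deposited CPM, without a filter on low counts, with the replicate block and without each library in turn. With at least 10 counts required in every library, 4 of the 9 were tested and 3 passed, 1 higher and 2 lower, because the filter removes the genes that are low in SEM::mock. When the log2 fold change also had to reach 1 in size, 6 factors were higher and 0 lower. Over all genes, 10594 passed, and 3896 did when the log2 fold change also had to reach 1 in size. Leaving out 1 library gave 9938 to 10499 genes. The scaling alternatives moved the median log2 fold change of all genes by at most 0.089, and without normalization factors 6304 genes were higher and 4309 lower, in place of 5640 and 4954. IKZF1 was the only factor whose sign turned, with values between -0.040 and 0.20 when a library was left out, the negative value being that without SEM::mock replicate 1, and its adjusted p lay between 0.0577 and 0.717 over the alternatives. The difference in the log2 ratio of IKZF3 to IKZF1 ranged from -0.74 to -0.55 and that of LEF1 to TCF7 from 1.16 to 1.40.

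The replicate numbers were tried as a pairing. Deviations of same-numbered libraries from their line means had correlations of -0.105, -0.063 and -0.034, so no pairing was visible in them. With 3 libraries per line, this cannot tell whether same-numbered libraries shared a culture or preparation. With the replicate block 10081 genes and 8 factors passed. PAX5, EBF1 and POU2AF1, with 0 to 2 counts in each SEM::mock library, have lower bounds only.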
